A study of Mus musculus with 12 samples.

Results

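The genes described here are 40 mouse genes that type I interferons induce, taken by symbol from a list. The rule uses no measured value, but the list was drawn up with earlier results of these data known. Of the 40, 39 were among the 21853 genes of the deposited table, and all 39 were among the 10994 genes tested. Mx2, which the GENCODE vM21 annotation lists as a polymorphic pseudogene, was not analysed here. RNA of whole bone marrow from B6 mice was sequenced in 12 libraries, 3 in each of 4 groups. The control mice were not irradiated, and no gavage or vehicle is stated for them. TBI mice received 5 Gy of total body irradiation with γ-rays, delivered at 0.66 Gy/min, and then the vehicle, which was 100 µL of olive oil given by gavage. TBI+DEIX mice received the same irradiation and then DEIX by mouth at 25 mg/kg once a day for 14 days. DEIX mice received DEIX alone. Marrow was taken 14 days after irradiation. DEIX stands for deinoxanthin in the series title, a carotenoid pigment of Deinococcus bacteria. Because the controls have no stated gavage, handling and vehicle cannot be told apart from the treatments in any difference from control. The age and sex of the mice are not given in the sources used here. Nothing says whether the 3 libraries of a group came from separate animals, so the p-values measure only the spread between these libraries.

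Values are FPKM, sequenced fragments scaled to transcript length and to the mapped fragments of a library, and they can be compared between genes for that reason. Summed FPKM per library ran from 493683 to 848843, and between 10359 and 10832 genes reached an FPKM of 1. Read depth is not given. Steps between low values placed the FPKM worth of 1 read at 0.894 to 1.89 times that of control replicate 1 in 9 libraries, with the highest values in TBI+DEIX replicate 3 (1.89), DEIX replicate 1 (1.65) and TBI+DEIX replicate 2 (1.51), and gave no single answer in 2 libraries, control replicate 3 and TBI+DEIX replicate 1. TBI+DEIX replicate 1 stood apart from all other libraries. It was the lowest of the 12 libraries for 33 of the 39 interferon stimulated genes, against 27.3% of all tested genes. Its summed FPKM, 493683, was also the lowest of the 12. As a share of the summed FPKM of its library it was lowest for 28 of the 39, against 11.7% of tested genes. The counts of called genes are therefore given with and without it. The difference, error and adjusted p given for a single gene come from the fit of all 12 libraries unless stated. Differences are on the log2(FPKM + 1) scale, which understates the change of genes at low FPKM, and were tested with limma over all tested genes. A gene is called changed at a Benjamini-Hochberg adjusted p under 0.05.

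Type I interferons, the interferon-alpha family and interferon-beta, are released by cells that sense foreign or misplaced nucleic acid. They bind the receptor chains Ifnar1 and Ifnar2 and, through the kinases Jak1 and Tyk2, activate a complex holding Stat2 and Irf9 that binds interferon-stimulated response elements in promoters. The genes under that control block viral replication, sense more nucleic acid, conjugate the ubiquitin-like protein Isg15, or feed back on the pathway. In bone marrow, interferon signalling is known for driving quiescent stem cells into cycle, and plasmacytoid dendritic cells are known as strong producers of type I interferon.

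The core of the response element was searched for as GAAA, any 2 bases and GAAA again, on both strands and with overlapping matches counted separately, in the RefSeq promoters of build GRCm38.p6 from 250 bases before to 50 bases after each start site. Of the 40 genes, 30 had a promoter entry, and 14 of these 30 (46.7%) held the motif. Among all genes with a promoter entry, 1079 of 27025 (3.99%) held it, and among tested genes with an entry, 354 of 8781 (4.03%). Counted by promoter, 16 of the 36 promoters (44.4%) of these genes held it, against 3.44% of all 32851 promoters of the same length. The 250 bases upstream of Isg15, Ifit1, Ifit3 and Ifit3b are shown because these genes had some of the largest differences between groups and carry more than 1 copy. They are written 5′ to 3′ on the strand of the gene, with matches to the motif on either strand in capitals.
Isg15, chr4:156200819-156201068, minus strand: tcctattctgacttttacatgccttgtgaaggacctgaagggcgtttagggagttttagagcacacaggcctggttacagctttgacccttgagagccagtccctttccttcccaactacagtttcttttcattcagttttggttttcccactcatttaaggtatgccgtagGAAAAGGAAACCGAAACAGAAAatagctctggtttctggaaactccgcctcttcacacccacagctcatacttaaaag
Ifit1, chr19:34640639-34640888, plus strand: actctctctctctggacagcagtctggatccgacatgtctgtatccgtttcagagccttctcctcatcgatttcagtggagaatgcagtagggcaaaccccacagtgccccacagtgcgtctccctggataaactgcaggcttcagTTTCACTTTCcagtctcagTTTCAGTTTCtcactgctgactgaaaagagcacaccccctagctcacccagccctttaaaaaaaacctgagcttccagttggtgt
Ifit3, chr19:34583279-34583528, plus strand: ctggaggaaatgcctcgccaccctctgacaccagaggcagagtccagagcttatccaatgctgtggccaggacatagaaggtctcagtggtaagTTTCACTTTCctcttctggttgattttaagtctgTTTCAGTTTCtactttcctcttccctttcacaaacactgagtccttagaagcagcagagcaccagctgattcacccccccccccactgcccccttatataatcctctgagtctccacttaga
Ifit3b, chr19:34607707-34607956, plus strand: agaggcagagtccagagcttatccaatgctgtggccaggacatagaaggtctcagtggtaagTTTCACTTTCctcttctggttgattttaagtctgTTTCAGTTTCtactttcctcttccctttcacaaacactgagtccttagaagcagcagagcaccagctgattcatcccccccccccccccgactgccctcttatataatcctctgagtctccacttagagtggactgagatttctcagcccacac
In Isg15, 3 overlapping matches on the gene's own strand begin 78, 72 and 66 bases before the start site. In Ifit1 the matches lie on the opposite strand, with their first bases 104 and 85 bases before the start site. Those of Ifit3, on the same side, lie 156 and 122 bases before it. Those of Ifit3b lie 188 and 154 bases before it. A match is a run of letters and not a shown binding site.

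Control had the highest group mean for 38 of the 39 genes, all but Samd9l, against 26.4% of all tested genes. The median of the 39 genes in each library, as the difference in log2(FPKM + 1) from the control mean of each gene, was -0.03, 0.07 and -0.05 in control replicates 1 to 3. It was -1.12, -1.15 and -1.29 in the TBI libraries, and -0.97, -1.03 and -0.60 in the DEIX libraries. In TBI+DEIX it was -1.88 in replicate 1, -0.77 in replicate 2 and -0.17 in replicate 3. The medians of all tested genes stayed between 0.00 and 0.05 in every library. The TBI libraries were thus close to each other, and the TBI+DEIX libraries ran from the lowest of the 12 to nearly the control level. In bulk tissue, fewer cells that express a gene and less RNA per cell cannot be told apart.

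**Figure D1:**
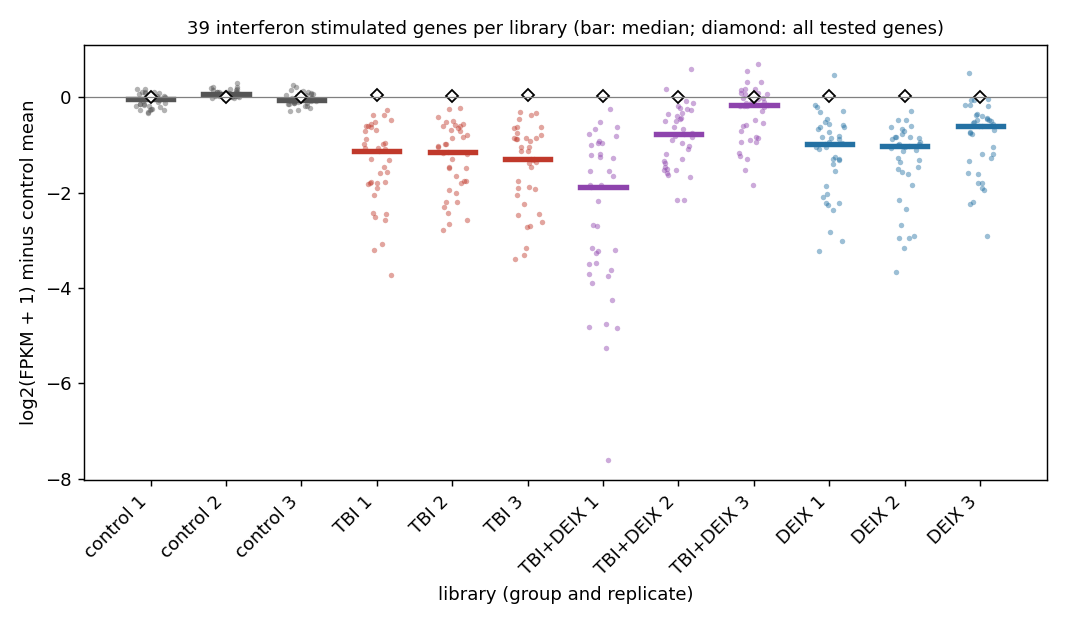
Each point is 1 of the 39 interferon stimulated genes, as its log2(FPKM + 1) in that library minus its control mean, on the vertical axis, for the 12 libraries on the horizontal axis. Bars are medians of the 39 genes and diamonds are medians of all tested genes. The bars lie near 0 in control, near -1 in TBI and DEIX, and between -1.88 and -0.17 in TBI+DEIX, while the diamonds stay near 0.

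The spread between replicates differed between groups. The median SD of log2(FPKM + 1) over the 39 genes was 0.124 in control, 0.161 in TBI and 0.290 in DEIX, and it was 0.960 in TBI+DEIX. Over all tested genes it was 0.0952, 0.129, 0.144 and 0.245 in the same order. In TBI+DEIX the highest library exceeded the lowest by a median of 4.30 times, from 1.48 times for Ifih1 upwards. Replicate 1 was the lowest TBI+DEIX library for all 39 genes, against 46.0% of tested genes, and for 37 of them as a share of summed FPKM (16.9% of tested genes). By FPKM, replicate 3 was the highest for all but 2 of them. Since limma here takes 1 spread for each gene from all 4 groups, the wide TBI+DEIX group widens the error of the comparisons that do not involve it.

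**Figure D2:**
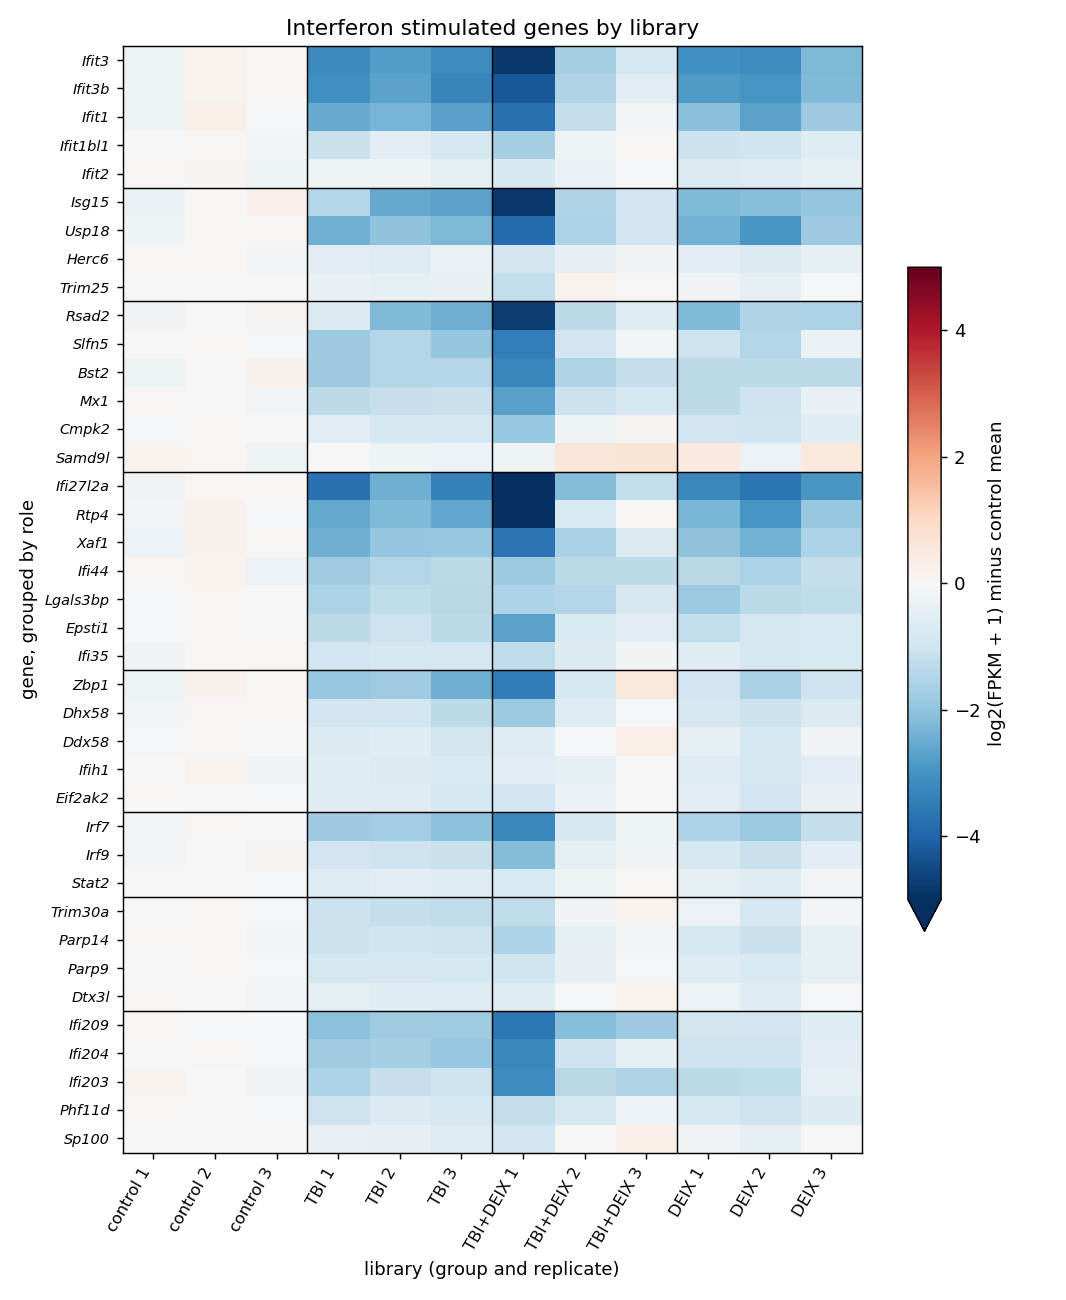
Each row is 1 of the 39 genes, grouped by role, and each column 1 library. Colour gives log2(FPKM + 1) minus the gene's control mean, with blue for lower and red for higher, and 2 values under -5 share the darkest blue. TBI and DEIX columns are blue for nearly all genes, and in TBI+DEIX the first column is the darkest of the map for most genes and the third is pale.

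Interferon stimulated genes were lower in TBI marrow, taken 14 days after irradiation, than in control marrow. Of the 39 genes, 38 were lower in every TBI library than in every control library, against 16.3% of all tested genes. The exception was Samd9l. With the 4 groups fitted together, 8 of the 39 were called lower and 0 higher, where 3.1% of tested genes were called lower and 0.891% higher. These were Ifi209, Ifi35, Ifi44, Ifih1, Ifit3b, Lgals3bp, Parp9 and Phf11d. The median difference of the 39 genes was -1.19, against 0.05 for all tested genes, and 33 of the 39 had an unadjusted p under 0.05 (18.1% of tested genes). Without TBI+DEIX replicate 1, 37 of the 39 were called lower (7.2% of tested genes), all but Ifit2 and Samd9l. The same number was called when control and TBI were fitted alone (7.76% of tested genes). Rescaling each library to TPM gave 17 (2.08% of tested genes). Leaving out any 1 of the 6 compared libraries left 2 or 3 called. Over 16 alternatives, the call was lost in 9 for Ifit3b and Ifih1, 8 for Ifi35, 6 for Parp9, 4 for Ifi209 and 0 for Lgals3bp. Ifi44 and Phf11d reached the minimum for testing only with the control libraries, so they had to be lower elsewhere. Over 15 alternatives, Phf11d lost the call in 7 and Ifi44 in 0. Without this pair, 6 genes were called in TBI, 5 in DEIX and 14 in TBI+DEIX against control.

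DEIX alone went with lower levels of the same set. Of the 39 genes, 37 were lower in every DEIX library than in every control library, against 17.2% of tested genes, the exceptions being Samd9l and Dtx3l. The fit of all 4 groups called 7 lower and 0 higher, where 2.72% of tested genes were called lower and 4.52% higher. The 7 were Ifi44, Ifih1, Ifit3, Ifit3b, Lgals3bp, Phf11d and Usp18. The median difference was -0.87, against 0.02 for all tested genes. Without TBI+DEIX replicate 1, 33 were called lower (8.48% of tested genes), and 33 were called when control and DEIX were fitted alone (7.78%). TPM gave 18 (2.07%). Leaving out any 1 of the 6 compared libraries left 2 called. Over 16 alternatives, Ifit3 lost the call in 11, Ifit3b in 9, Usp18 in 8, Ifih1 in 6 and Lgals3bp in 0. Over 15 alternatives, Phf11d lost the call in 7 and Ifi44 in 0. The TBI and DEIX comparisons share the control libraries, so they are not independent of each other.

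In TBI+DEIX against control the fit of all 4 groups called 16 lower and 0 higher, where 13.1% of tested genes were called lower and 16.9% higher. The median difference was -1.26, against 0.02 for all tested genes. Lower in every TBI+DEIX library than in every control library were 22 of the 39, against 21.1% of tested genes. Without replicate 1 the median was -0.42. The same 16 genes were then called lower (15.3% of tested genes), and Samd9l was called higher (23.2% of tested genes). Fitting only control and TBI+DEIX called 5, which were Bst2, Ifi203, Ifi209, Ifi44 and Lgals3bp (8.86% of tested genes called lower). With TPM 25 were called lower (11.3% of tested genes). Without TBI+DEIX replicate 3, 30 were called, and without control replicates 1, 2 or 3 the counts were 9, 6 and 7. Over 15 alternatives, the call was lost in 6 for Ifit3 and Ifit3b, in 5 for Isg15, Ifi204, Ifi27l2a and Epsti1, in 3 for Ifi35, Usp18 and Xaf1, in 1 for Mx1, and in 0 for Bst2, Ifi203, Ifi209 and Lgals3bp. Over 14 alternatives, Phf11d lost the call in 3 and Ifi44 in 0. The size of the difference from control rested on replicate 1 for 10 of the 16 genes. These 10 moved by over 1.5 times without it and are given both ways below.

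**Figure D3:**
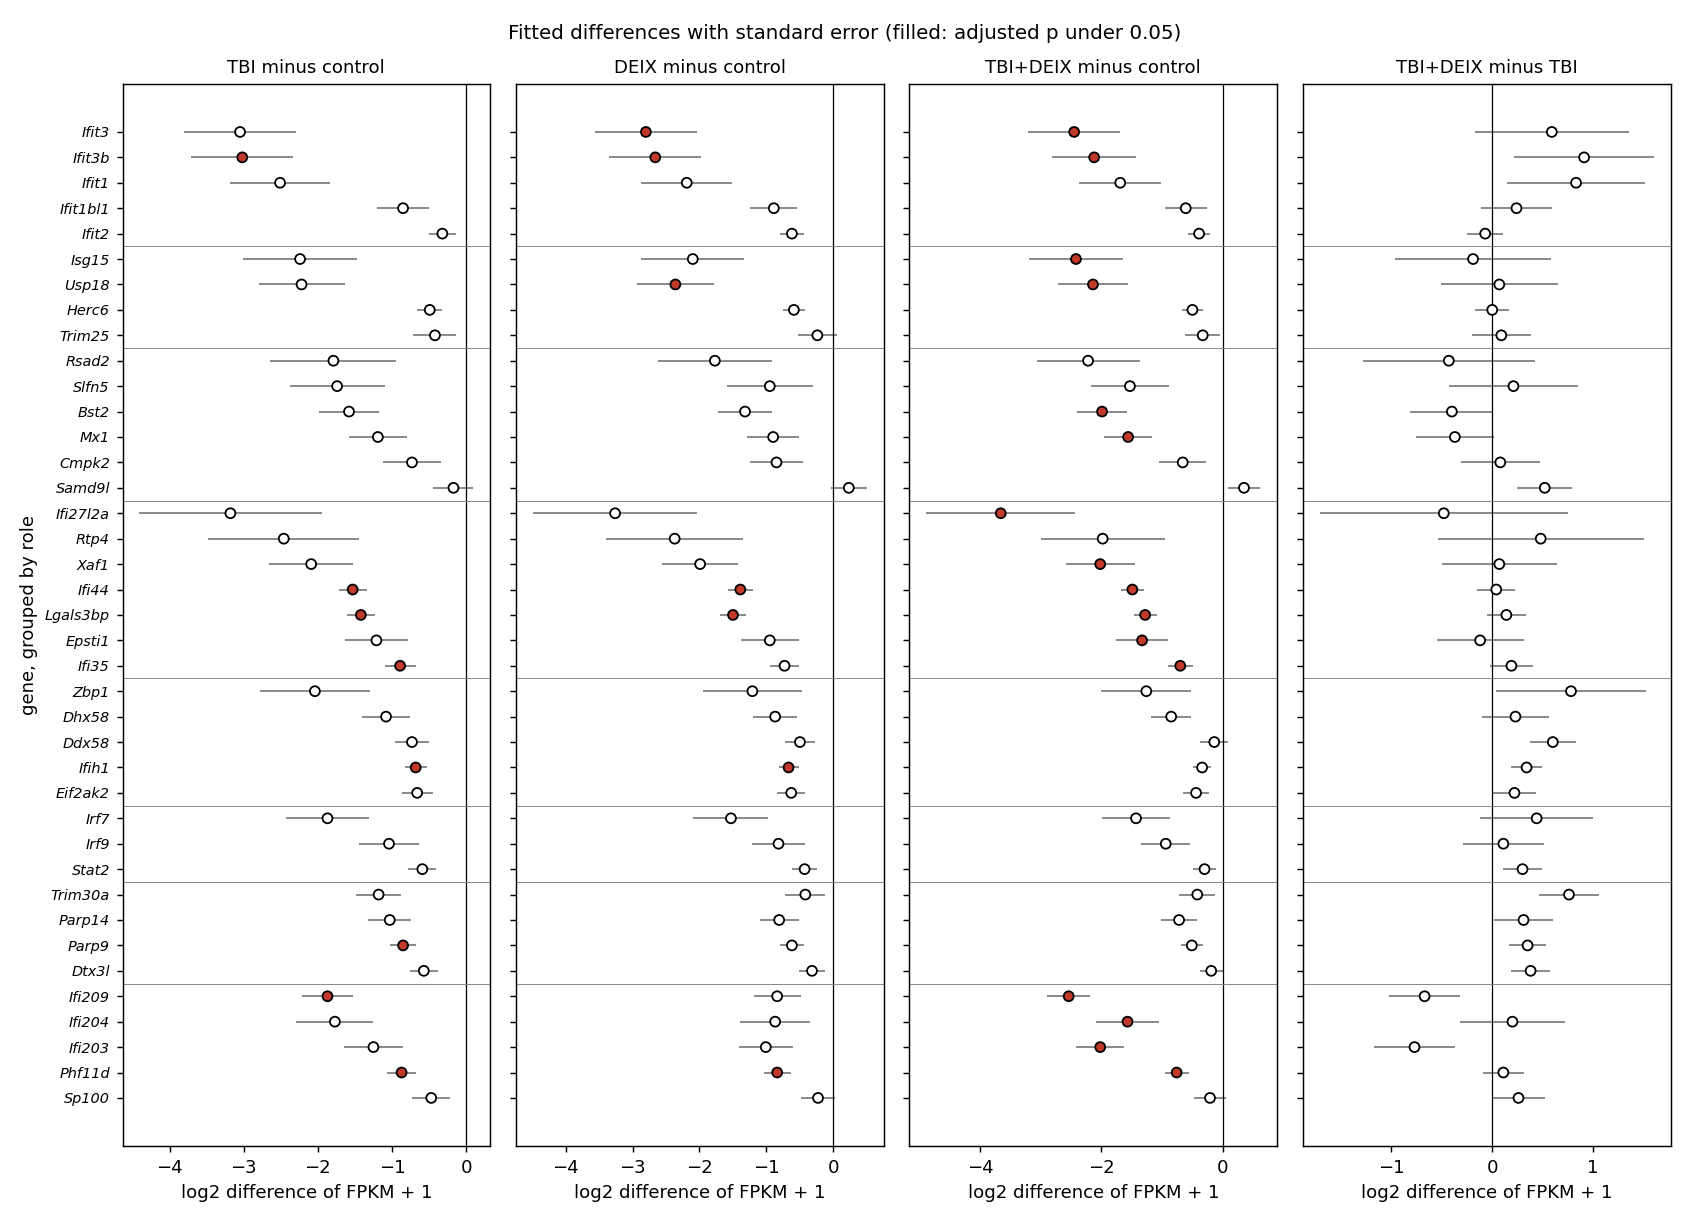
Points are fitted differences of log2(FPKM + 1) for the 39 genes, with bars of 1 standard error, in 4 comparisons of 3 libraries each. Filled points passed an adjusted p of 0.05 by limma. Nearly all points lie left of 0 in the 3 comparisons with control, and points of TBI+DEIX minus TBI lie on both sides of 0, with 0 filled.

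The IFIT proteins bind viral RNA and hold back its translation. Their 5 genes measured here lie side by side on chromosome 19 of GRCm38, from Ifit2 (chr19:34550694-34576419) to Ifit1 (chr19:34640871-34650009), with Ifit3 at chr19:34583531-34588731 and Ifit3b at chr19:34607970-34613401. All 5 were lower in every TBI library and every DEIX library than in every control library. Here and below, values are FPKM in replicates 1, 2 and 3. Ifit3 stood at 29.8, 39.8 and 37.6 in control, 2.97, 4.33 and 3.07 in TBI, 0.272, 10.4 and 19.3 in TBI+DEIX, and 3.53, 3.11 and 6.78 in DEIX. The TBI and DEIX libraries lay far below control, and the TBI+DEIX libraries spread from below all of them to above all of them. Ifit3 fell in DEIX (difference -2.80, SE 0.76, adjusted p = 0.0499) and in TBI+DEIX (-2.45, SE 0.76, adjusted p = 0.0323, or -1.26 without replicate 1), and missed the threshold in TBI (-3.05, SE 0.76, adjusted p = 0.0505). Ifit3b was at 15.3, 21.2 and 19.5 in control, 1.30, 2.07 and 0.96 in TBI, 0.025, 5.79 and 12.05 in TBI+DEIX, and 1.75, 1.503 and 3.26 in DEIX. Ifit3b fell in TBI (-3.02, SE 0.69, adjusted p = 0.0356), DEIX (-2.66, SE 0.69, adjusted p = 0.0436) and TBI+DEIX (-2.12, SE 0.69, adjusted p = 0.0397, or -1.05 without replicate 1). Of all 50-base words of the Ifit3 transcript, 51.2% also occur in other genes, most of them in Ifit3b, so the split of reads between this pair is uncertain.

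Ifit1 was measured at 14.1, 21.5 and 16.6 in control, 2.19, 2.66 and 1.74 in TBI, 0.35, 6.91 and 15.7 in TBI+DEIX, and 3.29, 1.85 and 4.19 in DEIX. Its TBI and DEIX libraries lay apart from control, and TBI+DEIX replicate 3 reached the control range. Ifit1 did not pass the threshold in the fit of all 4 groups (TBI minus control -2.51, SE 0.68, adjusted p = 0.0695). Ifit2 showed a narrower range, at 12.6, 12.8 and 9.85 in control, 9.59, 9.65 and 8.18 in TBI, 6.20, 9.12 and 11.3 in TBI+DEIX, and 6.71, 7.01 and 8.06 in DEIX. Ifit2 differed from control by -0.32 in TBI and -0.62 in DEIX and was not called in either in the fit of all 4 groups. Ifit1bl1, the lowest of the family, ranged from 2.86 to 3.49 in control and from 0.346 to 3.42 elsewhere, and was not called in that fit. When TBI+DEIX replicate 1 was left out, 4 of the 5 IFIT genes were called lower in TBI, all but Ifit2, and all 5 in DEIX, against 7.2% and 8.48% of tested genes. Ifit3 and Ifit3b were then called lower in TBI+DEIX (15.3% of tested genes).

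Isg15 encodes the ubiquitin-like modifier, Herc6 is the main enzyme that attaches it in mice, Usp18 removes it and also blocks signalling at Ifnar2, and Trim25 is a ubiquitin ligase that acts on the RNA sensor Rig-I. Isg15 stood at 49.6, 65.4 and 75.1 in control, 22.2, 9.74 and 8.83 in TBI, 1.25, 21.3 and 32.1 in TBI+DEIX, and 12.6, 13.3 and 15.5 in DEIX. TBI replicate 1 was well above the other TBI libraries, and all 9 treated libraries lay below control. Isg15 fell in TBI+DEIX (-2.42, SE 0.77, adjusted p = 0.036, or -1.22 without replicate 1), while the differences in TBI (-2.24, SE 0.77, adjusted p = 0.152) and DEIX (-2.10, SE 0.77, adjusted p = 0.124) did not pass. Usp18 was at 19.98, 25.2 and 24.8 in control, 3.52, 5.06 and 4.14 in TBI, 0.63, 7.005 and 11.6 in TBI+DEIX, and 3.69, 2.22 and 5.91 in DEIX. No treated library overlapped control. Usp18 fell in DEIX (-2.36, SE 0.58, adjusted p = 0.0354) and TBI+DEIX (-2.14, SE 0.58, adjusted p = 0.0181, or -1.27 without replicate 1), and differed by -2.22, SE 0.58, adjusted p = 0.0624 in TBI. Trim25 varied less, with 36.8, 35.9 and 35.7 in control, 27.7, 25.2 and 27.8 in TBI, 15.02, 40.8 and 37.7 in TBI+DEIX, and 32.1, 25.7 and 34.5 in DEIX. The TBI libraries lay below control, while TBI+DEIX replicates 2 and 3 lay above it. Herc6 ranged from 6.59 to 8.01 in control and from 3.44 to 6.46 in the other groups, and neither gene was called in the fit of all 4 groups. All 4 of these genes were called lower in TBI when TBI+DEIX replicate 1 was left out, as were Herc6, Isg15 and Usp18 in DEIX and Isg15 and Usp18 in TBI+DEIX, against 7.2%, 8.48% and 15.3% of tested genes.

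Irf9 and Stat2 are parts of the complex that binds the response element, and Irf7 is the factor that amplifies interferon-alpha transcription. Irf7 stood at 57.2, 67.8 and 64.3 in control, 17.3, 17.9 and 14.4 in TBI, 5.94, 33.4 and 54.5 in TBI+DEIX, and 20.9, 16.8 and 26.95 in DEIX. The control libraries were the 3 highest, and TBI+DEIX ran from the lowest to just under control. The control mean of Irf7, 63.1 ± 5.41 (SD, n = 3), was 3.81 times the TBI mean, 16.5 ± 1.89, and 2.93 times the DEIX mean, 21.5 ± 5.12. Irf9 was at 54.1, 59.9 and 64.9 in control, 30.2, 28.2 and 26.7 in TBI, 12.3, 43.3 and 52.6 in TBI+DEIX, and 33.5, 27.3 and 39.8 in DEIX. Stat2 was at 18.99, 19.3 and 18.2 in control, 11.9, 12.8 and 11.9 in TBI, 10.7, 16.1 and 20.1 in TBI+DEIX, and 12.97, 11.9 and 16.8 in DEIX. All 3 genes were lower in every TBI and DEIX library than in control. None of the 3 was called in the fit of all 4 groups (TBI minus control -1.87, SE 0.56, adjusted p = 0.102 for Irf7, -1.04, SE 0.40, adjusted p = 0.193 for Irf9 and -0.59, SE 0.19, adjusted p = 0.119 for Stat2), and all 3 were called lower in TBI and in DEIX without TBI+DEIX replicate 1 (7.2% and 8.48% of tested genes).

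Ifih1 and Ddx58 encode the RNA sensors Mda5 and Rig-I, Dhx58 their regulator Lgp2, Zbp1 a sensor of Z-form nucleic acid, and Eif2ak2 the RNA-activated kinase Pkr. Ifih1 was at 12.3, 13.5 and 10.4 in control, 7.58, 7.14 and 6.71 in TBI, 8.08, 8.22 and 11.95 in TBI+DEIX, and 7.23, 6.35 and 8.08 in DEIX. Ifih1 fell in TBI (-0.68, SE 0.15, adjusted p = 0.0313) and DEIX (-0.67, SE 0.15, adjusted p = 0.0277), by similar amounts. It was the only one of the 39 genes for which every TBI+DEIX library was above every TBI library. Zbp1 spread widest of the sensors, at 32.7, 45.2 and 40.8 in control, 9.76, 10.9 and 6.31 in TBI, 2.55, 21.6 and 57.8 in TBI+DEIX, and 19.5, 12.1 and 18.4 in DEIX. Ddx58 was at 26.1, 27.9 and 26.8 in control, 16.3, 17.4 and 13.9 in TBI, 16.6, 25.6 and 33.9 in TBI+DEIX, and 19.5, 14.3 and 23.6 in DEIX. Eif2ak2 was at 25.6, 25.1 and 23.4 in control, 15.97, 15.98 and 13.8 in TBI, 12.2, 19.2 and 24.4 in TBI+DEIX, and 16.2, 12.3 and 18.8 in DEIX. For these 3 genes, TBI lay below control, and TBI+DEIX replicate 3 lay above control for Zbp1 and Ddx58. Dhx58 ranged from 16.9 to 19.3 in control, 6.84 to 8.90 in TBI, 4.40 to 17.2 in TBI+DEIX and 8.33 to 10.8 in DEIX. In the fit of all 4 groups no sensor gene besides Ifih1 was called against control. With TBI+DEIX replicate 1 left out, all 5 were called lower in TBI, all but Ddx58 in DEIX, and 0 in TBI+DEIX, against 7.2%, 8.48% and 15.3% of tested genes.

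The effector genes include Mx1, for a GTPase that traps viral particles, Bst2, which tethers budding virions, and Rsad2, the enzyme viperin. Cmpk2 is the neighbour of Rsad2 on chromosome 12, and Samd9l and Slfn5 restrict translation or transcription. Whether these B6 mice make a working Mx1 protein cannot be read from RNA levels. Bst2 stood at 72.1, 85.8 and 99.7 in control, 23.7, 29.998 and 30.1 in TBI, 7.98, 28.995 and 37.2 in TBI+DEIX, and 33.9, 33.5 and 33.4 in DEIX. No treated library overlapped control. Bst2 fell in TBI+DEIX (-1.99, SE 0.41, adjusted p = 0.00466). It is also a surface marker of plasmacytoid dendritic cells in mice. Mx1 was at 10.2, 9.63 and 8.59 in control, 3.27, 3.66 and 3.83 in TBI, 0.611, 3.92 and 4.66 in TBI+DEIX, and 3.26, 4.17 and 7.003 in DEIX. Mx1 fell in TBI+DEIX (-1.56, SE 0.39, adjusted p = 0.0127, or -0.99 without replicate 1), with every TBI and DEIX library also below control. Cmpk2 was at 59.4, 65.4 and 61.6 in control, 42.04, 35.3 and 33.9 in TBI, 16.1, 52.2 and 69.3 in TBI+DEIX, and 31.5, 30.7 and 40.5 in DEIX. Samd9l was the exception of the set, at 77.9, 72.7 and 57.5 in control, 69.8, 59.2 and 55.4 in TBI, 58.3, 104 and 112 in TBI+DEIX, and 96.1, 55.99 and 98.9 in DEIX. Its TBI and DEIX libraries overlapped control, its difference was -0.17, SE 0.27, adjusted p = 0.789 in TBI and 0.23, SE 0.27, adjusted p = 0.636 in DEIX, and TBI+DEIX replicates 2 and 3 lay above every control library. Rsad2 ranged from 41.8 to 52.7 in control, 7.84 to 28.6 in TBI, 0.787 to 31.1 in TBI+DEIX and 9.39 to 16.2 in DEIX, and Slfn5 from 28.2 to 32.6, 7.15 to 10.2, 1.80 to 26.9 and 10.2 to 23.5 in that order. Neither was called in the fit of all 4 groups. Of the 6 effector genes, 5 were called lower in TBI and in DEIX without TBI+DEIX replicate 1, all but Samd9l, and Bst2 and Mx1 in TBI+DEIX, with the same 3 shares of tested genes.

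Parp9 and Dtx3l form a complex that modifies histones and viral proteins, Parp14 is a related ADP-ribosyltransferase, and Trim30a is a brake on inflammatory signalling. Parp9 was at 24.3, 25.01 and 22.4 in control, 12.6, 13.002 and 12.7 in TBI, 11.5, 17.5 and 22.3 in TBI+DEIX, and 15.1, 13.6 and 17.03 in DEIX. Parp9 fell in TBI (-0.85, SE 0.18, adjusted p = 0.0249), and its 3 TBI values were nearly the same. Dtx3l was at 23.7, 22.8 and 20.1 in control, 15.7, 14.4 and 13.8 in TBI, 14.1, 20.5 and 25.02 in TBI+DEIX, and 17.7, 14.4 and 21.1 in DEIX. Dtx3l did not pass (-0.57, SE 0.19, adjusted p = 0.133 in TBI). Parp9 (chr16:35938470-35972605, plus strand) and Dtx3l (chr16:35926511-35939151, minus strand) overlap at their starts, and whether the authors counted by strand is not given in the sources used here. Trim30a was at 71.2, 73.8 and 66.5 in control, 32.9, 30.4 and 28.3 in TBI, 28.7, 62.5 and 79.5 in TBI+DEIX, and 57.9, 39.01 and 63.4 in DEIX. Its TBI libraries lay far below control and its DEIX libraries nearer to it, with a difference of -1.18, SE 0.30, adjusted p = 0.0547 in TBI and -0.42, SE 0.30, adjusted p = 0.421 in DEIX. Parp14 ranged from 21.9 to 25.2 in control and 10.9 to 11.6 in TBI and was not called in the fit of all 4 groups (-1.03, SE 0.29, adjusted p = 0.0827). All 4 genes were called lower in TBI once TBI+DEIX replicate 1 was left out, as were Parp14 and Parp9 in DEIX, while 0 were called in TBI+DEIX, where the shares of tested genes were again 7.2%, 8.48% and 15.3%.

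The HIN-200 genes include sensors of DNA and lie in a cluster on chromosome 1, with Ifi209 at chr1:173630917-173647928, Ifi204 at chr1:173747293-173766943 and Ifi203 at chr1:173920407-173942672. Ifi209 stood at 61.9, 55.4 and 54.5 in control, 13.1, 15.8 and 16.1 in TBI, 3.70, 12.1 and 15.3 in TBI+DEIX, and 29.4, 28.6 and 37.4 in DEIX. TBI and TBI+DEIX lay lowest and DEIX in between, with no treated library overlapping control. Ifi209 fell in TBI (-1.87, SE 0.35, adjusted p = 0.0148) and TBI+DEIX (-2.54, SE 0.35, adjusted p = 0.000631), and its difference in DEIX did not pass (-0.84, SE 0.35, adjusted p = 0.17). Ifi203 was at 55.3, 48.4 and 42.8 in control, 15.7, 21.3 and 23.1 in TBI, 4.55, 18.1 and 16.3 in TBI+DEIX, and 19.1, 19.5 and 35.3 in DEIX. Ifi204 was at 33.2, 35.96 and 32.9 in control, 9.17, 10.2 and 8.43 in TBI, 2.77, 16.3 and 24.2 in TBI+DEIX, and 16.01, 16.1 and 23.2 in DEIX. Both fell in TBI+DEIX (Ifi203 -2.02, SE 0.40, adjusted p = 0.00418; Ifi204 -1.57, SE 0.52, adjusted p = 0.0412, or -0.75 without replicate 1) and did not pass in TBI or DEIX in the fit of all 4 groups. For Ifi209, 35.1% of 50-base words, and for Ifi204, 30.2%, also occur in other genes, most of them in Ifi214 and Ifi211 respectively, so reads of the cluster may be split between paralogs. Phf11d, which encodes a PHD finger protein, was low, at 1.86, 1.83 and 1.62 in control, 0.334, 0.707 and 0.539 in TBI, 0.219, 0.588 and 1.26 in TBI+DEIX, and 0.555, 0.359 and 0.731 in DEIX. Phf11d, tested only because its control level reached the minimum, was called lower in all 3 comparisons with control, a direction that the choice of tested genes favours (-0.87, SE 0.20, adjusted p = 0.0356 in TBI, -0.84, SE 0.20, adjusted p = 0.0315 in DEIX and -0.76, SE 0.20, adjusted p = 0.0152 in TBI+DEIX). Sp100, a component of nuclear bodies, was at 142, 139.7 and 137 in control, 108, 104 and 89.9 in TBI, 71.8, 139 and 175 in TBI+DEIX, and 122, 99.8 and 137 in DEIX. Sp100 lay below control in TBI and was not called in the fit of all 4 groups (-0.47, SE 0.26, adjusted p = 0.369). The fit without TBI+DEIX replicate 1 called all 5 genes of this group lower in TBI, and all but Sp100 in DEIX and in TBI+DEIX (7.2%, 8.48% and 15.3% of tested genes).

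The remaining 7 genes are widely used as markers of interferon exposure. Ifi27l2a had the highest mean FPKM of the 39 genes in control and TBI+DEIX, and Sp100 in TBI and DEIX. Ifi27l2a values were 626, 766 and 735 in control, 52.8, 130.2 and 66.4 in TBI, 2.62, 158 and 302 in TBI+DEIX, and 74.5, 55.1 and 93.6 in DEIX. All 9 treated libraries lay below control, and TBI+DEIX replicate 1 was at 2.62. Ifi27l2a fell in TBI+DEIX (-3.66, SE 1.23, adjusted p = 0.0431, or -1.69 without replicate 1). Its differences in TBI (-3.18, SE 1.23, adjusted p = 0.198) and DEIX (-3.26, SE 1.23, adjusted p = 0.131) did not pass, although the control mean was 8.53 times the TBI mean and 9.53 times the DEIX mean.

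Lgals3bp encodes a secreted glycoprotein that binds galectins. Lgals3bp stood at 91.6, 104 and 93.9 in control, 31.4, 38.9 and 36.3 in TBI, 32.4, 34.3 and 53.3 in TBI+DEIX, and 25.9, 36.9 and 39.2 in DEIX. All 9 treated libraries lay well below control, and TBI+DEIX replicate 1 was close to replicate 2. Lgals3bp fell in TBI (-1.42, SE 0.19, adjusted p = 0.00253), DEIX (-1.50, SE 0.19, adjusted p = 0.0039) and TBI+DEIX (-1.28, SE 0.19, adjusted p = 0.00101). Ifi44, an induced GTP-binding protein, was low, at 3.14, 3.35 and 2.17 in control, 0.122, 0.393 and 0.514 in TBI, 0.0765, 0.526 and 0.56 in TBI+DEIX, and 0.455, 0.297 and 0.697 in DEIX. Ifi44 was called lower in TBI (-1.53, SE 0.19, adjusted p = 0.00148), DEIX (-1.39, SE 0.19, adjusted p = 0.00447) and TBI+DEIX (-1.49, SE 0.19, adjusted p = 0.000453). It too was tested only because of its control level, which favours a lower call elsewhere.

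Rtp4, a chaperone of G protein-coupled receptors, was at 67.1, 85.5 and 69.6 in control, 11.6, 15.4 and 11.2 in TBI, 0.95, 42.9 and 78.7 in TBI+DEIX, and 14.5, 8.65 and 19.1 in DEIX. TBI+DEIX replicate 3 lay within the control range, the TBI and DEIX libraries below it, and no comparison of Rtp4 passed in the fit of all 4 groups (TBI minus control -2.46, SE 1.02, adjusted p = 0.233). Xaf1, which promotes apoptosis, was at 19.1, 28.1 and 25.2 in control, 3.56, 5.501 and 5.74 in TBI, 0.907, 7.03 and 14.2 in TBI+DEIX, and 5.09, 3.88 and 7.19 in DEIX. Xaf1 fell in TBI+DEIX (-2.02, SE 0.57, adjusted p = 0.0215, or -1.17 without replicate 1) and differed by -2.09, SE 0.57, adjusted p = 0.0719 in TBI. Ifi35 was at 29.6, 34.4 and 35.9 in control, 16.4, 18.04 and 17.95 in TBI, 13.3, 20.6 and 29.2 in TBI+DEIX, and 21.3, 18.2 and 19.3 in DEIX. Ifi35 fell in TBI (-0.89, SE 0.21, adjusted p = 0.0395) and TBI+DEIX (-0.70, SE 0.21, adjusted p = 0.0279, or -0.42 without replicate 1). Epsti1 was at 21.3, 23.97 and 23.1 in control, 8.59, 10.7 and 8.69 in TBI, 2.69, 13.1 and 15.3 in TBI+DEIX, and 9.05, 12.3 and 12.9 in DEIX. Epsti1 fell in TBI+DEIX (-1.33, SE 0.43, adjusted p = 0.037, or -0.65 without replicate 1). In the fit without TBI+DEIX replicate 1 all 7 of these genes were called lower in TBI and in DEIX, and all but Rtp4 in TBI+DEIX, against 7.2%, 8.48% and 15.3% of tested genes.

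**Figure D4:**
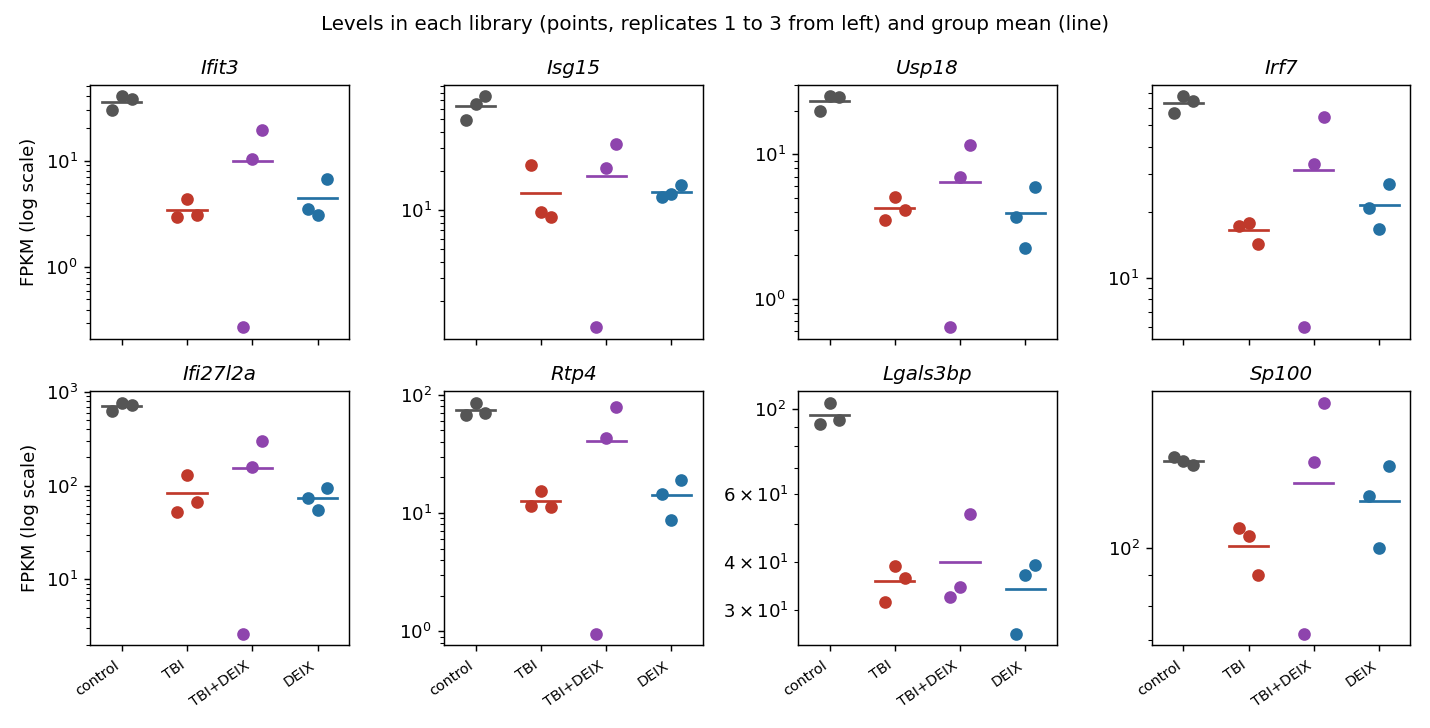
FPKM on a log axis for 8 of the genes, with 1 point per library, replicates 1 to 3 from left, and a line at the mean of the 3 libraries of each group on the horizontal axis. In 7 of the 8 panels, all but Lgals3bp, TBI+DEIX replicate 1 is the lowest point. All 9 treated libraries lie below control for Ifit3, Isg15, Usp18, Irf7, Ifi27l2a and Lgals3bp, but not for Rtp4 and Sp100.

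The comparison of TBI+DEIX with TBI asks whether DEIX given after irradiation moved the genes. Of the 39 genes, limma called 0, where 8.1% of tested genes were called. At an unadjusted p under 0.05 there were 3 (27.2% of tested genes), and a fit of the 2 groups alone called 0 of the 39 and 0 of all 10994 tested genes. The median difference was 0.20, against 0.00 for all tested genes, with 29 genes above 0 and 10 below. Only Ifih1 was higher in every TBI+DEIX library than in every TBI library, where 14.5% of tested genes were. These values turned on TBI+DEIX replicate 1. Without it, 28 of the 39 were called higher (16.2% of tested genes) and 0 lower, the median was 0.72, and 30 were higher in both remaining libraries than in all TBI libraries (31.8% of tested genes). Without replicate 3 the median was -0.15, and without replicate 2 it was 0.07. Relative to control, TBI+DEIX replicate 3 had 22 of the 39 genes below the lowest control library and 9 above the highest. The share of all tested genes is not given for this single library, so these counts only describe it.

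The interaction is the DEIX difference in irradiated mice minus the DEIX difference in unirradiated mice. It was above 0 for all 39 genes, with a median of 1.07 against -0.02 for all tested genes. Both terms use the libraries named above, and the lower levels in DEIX alone enter it with the opposite sign. The unirradiated term compares DEIX with controls that have no stated gavage or vehicle, whereas TBI mice received vehicle. Handling and vehicle can therefore not be told apart from DEIX in the interaction. The fit called 1 of the 39, Lgals3bp (difference 1.63, SE 0.28, adjusted p = 0.0488), where 0.191% of tested genes were called higher. At an unadjusted p under 0.05 there were 21 (7.5% of tested genes). Without TBI+DEIX replicate 1, 34 were called higher (2.57% of tested genes), and the median was 1.55. Leaving out any other library left 0 or 1 called.

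The genes that carry the interferon signal were read from a second list of 43 genes in the table, of which 31 were tested. None of the 12 ligand genes reached the level for testing, and 9 of them were listed at 0 in all 12 libraries. Ifng, the type II interferon, had means of 0.529 in control, 0.132 in TBI, 0.174 in DEIX and 0.352 in TBI+DEIX. Neither chain of the type I receptor was called in any comparison, with or without TBI+DEIX replicate 1, with Ifnar1 means between 21.9 and 26.3 and Ifnar2 means between 56.0 and 68.2.

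In TBI against control, 1 of the 31 pathway genes was called lower and 0 higher, against 3.1% and 0.891% of tested genes. The gene was Socs1, an inhibitor of Jak kinases that interferon itself induces, with a mean of 3.85 in control, 1.47 in TBI, 1.72 in DEIX and 2.97 in TBI+DEIX. Socs1 fell in TBI (-0.97, SE 0.14, adjusted p = 0.00321) and DEIX (-0.83, SE 0.14, adjusted p = 0.00819), rose in TBI+DEIX against TBI (0.69, SE 0.14, adjusted p = 0.0203), and was called in the interaction (1.52, SE 0.20, adjusted p = 0.0142). Its 3 TBI+DEIX values were 2.90, 3.11 and 2.89, so replicate 1 did not stand apart for this gene. Without that library 7 pathway genes were called lower in TBI (7.2% of tested genes) and 1 higher (4.96%). In DEIX against control 1 was called lower, Socs1, and 6 higher, against 2.72% and 4.52% of tested genes. The counts without TBI+DEIX replicate 1 were 3 lower (8.48%) and 9 higher (13.3%). The 6 that rose with all 12 libraries were Socs3 and Ptpn1, 2 other brakes, Ifngr1, a chain of the type II receptor, Jak1, and the sensing genes Tlr7 and Myd88.

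TBI+DEIX against control called 4 of the 31 pathway genes lower, against 13.1% of tested genes, and 8 higher, against 16.9%. Without replicate 1 the same 4 were called lower (15.3%) and 12 higher (23.2%). Irf8, a factor that monocytes and plasmacytoid dendritic cells need, had means of 95.0, 51.3, 25.7 and 77.4 in control, TBI, TBI+DEIX and DEIX. Irf8 fell against control (-1.92, SE 0.22, adjusted p = 0.000316) and against TBI (-1.03, SE 0.22, adjusted p = 0.024). The other 3 lower genes were Irf5, Tlr9, the DNA sensor of endosomes, and Mavs, the adaptor of the RNA sensors. Myd88, the adaptor of Tlr7 and Tlr9, rose against control (1.01, SE 0.15, adjusted p = 0.000765) and against TBI (0.87, SE 0.15, adjusted p = 0.016). Socs3 rose to a mean of 22.2 from 5.76 in control (1.76, SE 0.22, adjusted p = 0.00041). In TBI+DEIX against TBI, 2 pathway genes were called lower (3.41% of tested genes) and 4 higher (4.69%), and without replicate 1 the counts were 2 (9.59%) and 11 (16.2%).

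Markers of the cells in the marrow differed between the groups as well. The main lineages of whole marrow were all present in control, with summed FPKM of 21635 to 30288 over 9 neutrophil genes, 3669 to 5806 over 9 erythroid genes and 395 to 476 over 10 B lineage genes. The 8 plasmacytoid dendritic cell markers summed to 205 to 255 in control, 49.1 to 71.6 in TBI, 71.9 to 84.4 in DEIX and 13.9 to 51.8 in TBI+DEIX. Of these 8, limma called 6 lower in TBI (3.1% of tested genes), 2 in DEIX (2.72%) and 8 in TBI+DEIX (13.1%) against control, and 2 lower in TBI+DEIX against TBI (3.41%). Without TBI+DEIX replicate 1 the counts were 8 (7.2%), 6 (8.48%), 8 (15.3%) and 3 (9.59%). The defining marker Siglech was above 0 in all libraries, and Cd209d was at 0 in TBI+DEIX replicate 1. B lineage genes summed to 29.5 to 359 in TBI, 6.95 to 181 in TBI+DEIX and 61.6 to 97.5 in DEIX. Of the 10 B lineage genes, 2 were called lower in TBI, 2 in DEIX and 8 in TBI+DEIX against control, and 3, 10 and 7 without TBI+DEIX replicate 1. Over 9 monocyte and macrophage genes the sums were 1820 to 1866 in control, 1192 to 1870 in TBI, 690 to 2557 in TBI+DEIX and 1826 to 2251 in DEIX, and C1qa and C1qb were called lower in TBI and DEIX with and without that library. The 5 megakaryocyte genes summed to 104 to 160 in control, 23.1 to 43.4 in TBI, 21.0 to 38.1 in TBI+DEIX and 58.1 to 97.7 in DEIX, with 3 called lower in TBI and 4 in TBI+DEIX, and 4 in each without it. The 8 T and NK cell genes summed to 147 to 182 in control, 94.6 to 136 in TBI, 53.1 to 141 in TBI+DEIX and 125 to 189 in DEIX. Of these, 2 were called lower in TBI and 3 in TBI+DEIX, and 7 in TBI, 4 in DEIX and 3 in TBI+DEIX without it. The 9 neutrophil genes summed to 25388 to 31476 in TBI, 20504 to 52238 in TBI+DEIX and 25812 to 36025 in DEIX. Of these, 3 were called higher in TBI+DEIX against control (16.9% of tested genes), Cxcr2, Ltf and Mmp9, and 8 without TBI+DEIX replicate 1 (23.2%). That fit also called 3 of them higher in DEIX (13.3%). The 9 erythroid genes summed to 1983 to 9125 in TBI, 207 to 1782 in TBI+DEIX and 1470.5 to 8962 in DEIX, with 6 called lower in TBI+DEIX against control (13.1%) and 2 without replicate 1 (15.3%). The 4 promyelocyte genes summed to 2749 to 3901 in control, 1805 to 3517 in TBI, 1704 to 2953 in TBI+DEIX and 3012 to 4820.02 in DEIX, with Elane called lower in TBI+DEIX, and Elane and Mpo without replicate 1. TBI+DEIX replicate 1 had the lowest summed FPKM of the 12 libraries for 7 of the 8 marker lists. As a share of summed FPKM it was lowest for 5, the plasmacytoid dendritic cell, B lineage, monocyte, T and NK cell and erythroid lists, while 2 libraries had a lower share of neutrophil markers, 1 of megakaryocyte markers and 8 of promyelocyte markers. The part of these cell types in the levels of the interferon stimulated genes was not tested.

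The genes with and without the promoter motif were compared as a description. In TBI minus control the median difference was -1.42 for the 14 genes with the motif and -0.88 for the 16 matched genes without it. In DEIX minus control the medians were -0.98 and -0.83, and in TBI+DEIX minus control -1.61 and -0.73. Both sets were below the median of all tested genes in each of these comparisons. The TBI+DEIX medians were -0.61 and -0.37 without replicate 1. Called lower in TBI were 2 of the 14 with the motif and 5 of the 16 without it, where 3.1% of tested genes were called lower. Leaving aside Ifi44 and Phf11d, which had to be lower, 3 of 14 without the motif were called. Without TBI+DEIX replicate 1 the counts over all genes of both sets were 14 of 14 and 14 of 16, against 7.2%. Lgals3bp had no match in its window, and Bst2 had 2 overlapping matches that begin 130 and 124 bases before its start site.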

How the data were processed

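Messenger RNA of whole bone marrow cells was measured in 12 libraries made with a directional MGI kit, per the labels' protocols. The deposited table holds the authors' FPKM values. STAR 2.6, Cufflinks 2.2.1 and the build mm10 are named, per the submitters' processing notes. The annotation and the strand setting are not given in the sources used here. FPKM holds no counts, so read depth is unknown and no count model was used.

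All 21853 identifiers matched protein-coding genes of GENCODE vM21 (GRCm38), which gave symbols and coordinates. The test took 10994 genes that reached an FPKM of 1 in 3 or more libraries, as log2(FPKM + 1). limma 3.58.1 in R 4.3.3 fitted 4 group means over the 12 libraries (8 residual degrees of freedom), with an eBayes trend, 5 contrasts and Benjamini-Hochberg adjustment over the 10994 genes. The fit was tested on simulated data in which each gene had the same spread in all 4 groups. That test does not cover the wider spread of TBI+DEIX. S100a8, S100a9 and Ngp, each at 0 in some libraries, made up 0% to 26.4% of summed FPKM. TPM was computed from FPKM as an alternative, with and without these 3 genes in the sum. Other alternatives were a pseudocount of 0.1, no filter, an FPKM of at least 5, median centring, the compared groups alone, array weights, a replicate block and each library left out. Leaving out TBI+DEIX replicate 1 in the comparisons that do not use it, and for the role groups, pathway, marker and motif lists, was chosen after seeing the data, as were shares of summed FPKM. Transcripts were compared for shared 50-base words, and promoters came from RefSeq, build GRCm38.p6.

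In each role group, genes called in any contrast and the 3 highest by mean FPKM have the value in every library given, and the rest have ranges. The 40 genes, the pathway list and the marker lists were chosen with earlier results of these data known, so no list is independent evidence of a direction.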

Additional observations from a re-analysis of the deposited data

Results flagged for a closer look

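Lgals3bp differed between irradiated and unirradiated mice in its difference with DEIX, by the test of the interaction. The interaction was 1.63 on the log2(FPKM + 1) scale (SE 0.28, limma adjusted p = 0.0488). DEIX minus control was -1.50 in unirradiated mice and TBI+DEIX minus TBI was 0.14 in irradiated mice. All 3 DEIX libraries lay below control, while the TBI+DEIX and TBI libraries overlapped. Over 20 alternatives the interaction ranged from 1.41 to 1.76, with adjusted p from 0.00124 to 0.167, and it missed the threshold in 13 of them. A gene whose level is low in every treated library gives a positive interaction by the arithmetic of the contrast. The controls have no stated gavage or vehicle, so handling cannot be told apart from DEIX in the unirradiated term. In the groups of 3 libraries no outlying library was tested for.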

How the results depend on the processing

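Among the single genes named as called, 352 of 494 values under alternatives kept their direction and side of the threshold, 142 lost the call and 0 reversed, over 32 pairs of gene and comparison. The counts of called genes moved most. Shares of all tested genes are given above for TPM, the compared groups alone and the fit without TBI+DEIX replicate 1. They are not given for the other settings, including the replicate block and the other left-out libraries. Counts under those settings can therefore not be told apart from a change in calls over all genes. In TBI minus control, 8 became 4 with an FPKM of at least 5, 17 with TPM, 37 with the compared groups alone and 38 with array weights. In DEIX minus control, 7 became 3 with a pseudocount of 0.1, 4 with no filter, 4 with an FPKM of at least 5, 18 with TPM, 33 with the compared groups alone and 36 with array weights. In TBI+DEIX minus control, 16 became 10 with no filter, 25 with TPM, 5 with the compared groups alone and 28 with array weights. In TBI+DEIX minus TBI, 0 became 26 with array weights. In the interaction, 1 became 0 with a pseudocount of 0.1, with no filter or with an FPKM of at least 5, and 35 with array weights. Array weights gave TBI+DEIX replicate 1 the weight 0.0709, but also changed others, with 11 for control replicate 2 and 3.76 for TBI replicate 2. The cause of these moves was not tested for any setting.

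The median difference of the tested genes was -1.29 in TBI minus control with a pseudocount of 0.1, -1.09 in DEIX minus control with TPM, and -0.64 in TBI+DEIX minus control with array weights. TPM moved the median of all tested genes to -0.12 in DEIX minus control and in TBI+DEIX minus TBI. Leaving out 1 library at a time gave medians from -1.22 to -1.14 in TBI, from -1.03 to -0.78 in DEIX and from -1.50 to -0.42 in TBI+DEIX against control, from -0.15 to 0.72 in TBI+DEIX minus TBI and from 0.72 to 1.55 in the interaction. The value of -0.15, without TBI+DEIX replicate 3, reversed the direction. Called genes ranged from 2 to 37 in TBI, 2 to 33 in DEIX, 6 to 30 in TBI+DEIX against control, 0 to 28 in TBI+DEIX minus TBI and 0 to 34 in the interaction. Where a fit leaves 2 libraries in a group, they are assumed to vary like the other groups.

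The replicate block (numbers 1 to 3 as pairs) called 10, 8, 16, 0 and 1 genes in TBI, DEIX and TBI+DEIX against control, TBI+DEIX minus TBI and the interaction. Of 18 same-numbered pairs, 3 had a correlation of deviations above 0.1 (range -0.447 to 0.242). Of 12 libraries, 2 correlated best with their own number. With so few libraries per group, these correlations cannot decide whether same-numbered libraries share a batch. Depth limits the lowest values most, those of Ifi44, Phf11d and TBI+DEIX replicate 1.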
